A study of Mus musculus with 45 samples.

Results

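Cancer-associated fibroblasts are the stromal cells that lay down and remodel the matrix of a solid tumour, and 10 genes commonly used to mark them were followed through CT26 tumours of treated mice. The genes were Fap, Postn, Lum, Dcn, Pdgfra, Pdgfrb, Acta2, Cxcl12, Ctsk and Cpxm1. They were taken by symbol from the 47729 genes listed in each of 2 deposited tables, and all 10 were found in both. The set was chosen by symbol but with measured values in view, namely the difference of several of these genes between vehicle and the combination of 10 mg/kg serplulimab plus 10 mg/kg HLX53 in the experiment coded T2106. That comparison is therefore described here and not tested.

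The tumours were subcutaneous growths of CT26, a murine colon carcinoma line labelled as undifferentiated, in BALB/c HuGEMM mice, a double knock-in in which PD-1 and TIGIT are human. Both proteins restrain T cells, and TIGIT also natural killer cells. All 45 tumours, vehicle tumours included, grew in mice of this genotype, and every group held 3 tumours with separate identifiers. T2106 comprised vehicle, serplulimab at 10 mg/kg, HLX53 at 10 mg/kg, pembrolizumab with tiragolumab at 10 mg/kg each, and 2 combinations of 10 mg/kg serplulimab, with HLX53 either at the lower dose of 5 mg/kg or again at 10 mg/kg. In T2215 there were vehicle, the 4 antibodies alone (serplulimab and pembrolizumab against PD-1, HLX53 and tiragolumab against TIGIT) and the 4 pairs of an antibody to PD-1 with an antibody to TIGIT, each at 10 mg/kg. Vehicle was saline. Treatment was given intraperitoneally. Its start was labelled as day 8 in every group, at tumours of 90 to 100 mm3. The age and sex of the mice and the day of collection were not given in the sources used here.

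Fibroblasts of a tumour secrete collagens and small leucine-rich proteoglycans, respond to platelet-derived growth factors through the receptors PDGFRA and PDGFRB, and can take on a contractile state with smooth muscle actin. They also release CXCL12, a chemokine that binds CXCR4 and ACKR3, and proteases that open the matrix. None of these genes is exclusive to fibroblasts: pericytes and vascular smooth muscle transcribe Pdgfrb and Acta2, and osteoclasts transcribe Ctsk at a high level. In bulk RNA, fewer cells of a type and less RNA per cell cannot be told apart, and the cells that carried each transcript were not identified.

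The promoters of 6 of the 10 genes were in the RefSeq table for GRCm38.p6. The 250 bases before the start are shown for the 4 genes with a promoter in the table whose levels varied most between tumours, in lower case with TATAAA and GGGCGG on either strand in capitals.
Postn (chr3:54360857-54361106, plus strand): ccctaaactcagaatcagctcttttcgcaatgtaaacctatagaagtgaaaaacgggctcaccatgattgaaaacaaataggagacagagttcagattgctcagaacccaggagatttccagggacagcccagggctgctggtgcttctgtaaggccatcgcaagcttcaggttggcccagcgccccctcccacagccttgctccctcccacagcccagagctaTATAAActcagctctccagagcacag
Cxcl12 (chr6:117168285-117168534, plus strand): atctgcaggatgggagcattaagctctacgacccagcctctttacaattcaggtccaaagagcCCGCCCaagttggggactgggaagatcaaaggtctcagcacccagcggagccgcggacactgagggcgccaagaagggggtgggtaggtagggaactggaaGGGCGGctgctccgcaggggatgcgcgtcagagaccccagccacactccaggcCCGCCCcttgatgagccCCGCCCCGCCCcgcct
Ctsk (chr3:95498960-95499209, plus strand): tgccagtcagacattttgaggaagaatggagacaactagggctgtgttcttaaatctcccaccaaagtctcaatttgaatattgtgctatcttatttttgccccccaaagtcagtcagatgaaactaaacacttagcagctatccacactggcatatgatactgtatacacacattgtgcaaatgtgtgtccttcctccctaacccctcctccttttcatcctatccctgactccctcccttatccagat
Cpxm1 (chr2:130397630-130397879, minus strand): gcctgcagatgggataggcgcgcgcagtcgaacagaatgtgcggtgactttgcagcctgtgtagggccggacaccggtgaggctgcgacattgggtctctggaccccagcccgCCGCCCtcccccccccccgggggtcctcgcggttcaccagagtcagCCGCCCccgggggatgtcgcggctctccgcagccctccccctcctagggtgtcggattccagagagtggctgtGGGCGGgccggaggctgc

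The 4 promoters differed in the motifs they held. The Postn promoter held a TATAAA beginning 26 bases before the start, a motif in 12.4% of 32851 mouse promoters of the same length, and no GGGCGG. The table holds a second Postn start, whose promoter at chr3:54359017-54359266 has 40.4% GC and neither motif, and the one printed lies next to the start of the gene in GENCODE M21. Cxcl12 had 5 matches to GGGCGG on either strand and Cpxm1 had 3, and 32.7% of promoters had at least 1. The matches 16 and 11 bases before the Cxcl12 start overlap by 1 base. The Ctsk promoter held neither motif. It had 3 matches to CANNTG, the E-box, which 66.2% of promoters hold, and one of them is also a match to CATATG. GC content was 70.8% for Cpxm1, 64.4% for Cxcl12, 52.0% for the printed Postn promoter and 43.2% for Ctsk, against a median of 52.4%. In all, 13 motifs were searched on both strands, and none of the 4 promoters matched TGANTCA, the AP-1 site, which 6.75% of promoters hold. A match describes letters only, and binding was not measured.

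Levels are given as FPKM, fragments per kilobase of transcript scaled to the size of the library, which allows levels of different genes to be set side by side. Dcn, a proteoglycan that binds collagen fibrils, was the most abundant of the 10, with a median of 171 FPKM over the 18 T2106 tumours and 156 FPKM over the 27 T2215 tumours. Fap, a serine protease of the fibroblast surface, was the lowest, with medians of 0.763 and 0.997 FPKM. All 10 genes had at least 0.5 FPKM in at least 3 tumours of each experiment. At the level of single tumours Fap reached 0.5 FPKM in 12 of 18 and 23 of 27, Cpxm1 in 11 of 18 and 26 of 27, and Lum in 17 of 18 and 27 of 27. The remaining 7 genes reached it in every tumour.

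The range of levels differed greatly between the genes. From the lowest to the highest tumour, Cpxm1 spanned 1618-fold in T2106 and 1472-fold in T2215, Ctsk 792-fold and 407-fold, and Postn 329-fold and 136-fold. Cxcl12 spanned 271-fold and 171-fold, Lum 150-fold and 64.2-fold, and Fap 83.7-fold and 37.4-fold. Acta2 spanned 19.3-fold and 24.8-fold. Dcn, Pdgfra and Pdgfrb had narrow ranges, of 10.2-fold, 6.08-fold and 4.22-fold in T2106 and 5.71-fold, 3.91-fold and 2.61-fold in T2215.

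The labelled cell type was checked against carcinoma and mesenchymal genes. Vim, the mesenchymal filament gene, lay at 1355 to 2976 FPKM in T2106 and 1641 to 4028 FPKM in T2215, and Krt20, an intestinal keratin, at 5.44 to 120 and 12.6 to 138 FPKM. Krt20 was picked after its values were seen. Of the epithelial genes, Krt18 lay at 8.52 to 40.8 and 4.49 to 42.7 FPKM, Krt8 reached 40.4 and 27.8 FPKM, and Epcam and Cdh1 did not exceed 11.02 and 4.55 FPKM in any tumour. Vim, itself often used as a fibroblast marker, was thus high in every tumour, also where Fap, Postn and Cpxm1 were low.

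In the GENCODE M21 annotation of GRCm38 the matrix genes were Postn at chr3:54361109-54391037, Lum at chr10:97565128-97572703 and Dcn at chr10:97479609-97518143. The receptor genes were Pdgfra at chr5:75152292-75198215 and Pdgfrb at chr18:61045150-61085061, and the surface protease gene Fap lay at chr2:62500943-62574075. Acta2 lay at chr19:34241090-34255590, Cxcl12 at chr6:117168535-117181367, Ctsk at chr3:95499256-95509362 and Cpxm1 at chr2:130390775-130397574. Pdgfra overlaps 3 other annotated genes, an antisense gene and a microRNA among them, so that its reads could be shared. The other 9 overlap no annotated gene. Acta2 is similar in sequence to other actin genes, and how reads shared between them were assigned is not known.

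Postn, which encodes the matrix protein periostin, was low in most T2106 tumours. Its level was 1.39, 19.4 and 2.20 FPKM in the vehicle tumours, replicates 1 to 3, and 1.82, 1.71 and 1.27 FPKM with pembrolizumab and tiragolumab. It was 6.83, 1.45 and 2.47 FPKM with HLX53 alone and 132, 10.2 and 7.12 FPKM with serplulimab alone. With serplulimab and HLX53 it was 39.7, 419 and 6.84 FPKM at the 5 mg/kg dose of HLX53 and 294, 272 and 255 FPKM at 10 mg/kg. The 3 tumours of the 10 mg/kg pair lay within 1.15-fold of each other, and those of the 5 mg/kg pair spread over 61.2-fold. One tumour of the 5 mg/kg pair was above all 3 of the 10 mg/kg pair.

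In T2215 Postn was higher in vehicle tumours, at 65.3, 44.4 and 8.90 FPKM, although the tables were normalised separately and levels cannot be compared closely between them. It was 349, 7.18 and 82.9 FPKM with serplulimab, 24.3, 17.8 and 3.01 FPKM with pembrolizumab, 2.57, 176 and 22.2 FPKM with HLX53 and 6.19, 10.9 and 4.45 FPKM with tiragolumab. Of the pairs, serplulimab with HLX53 gave 97.5, 298 and 35.9 FPKM, serplulimab with tiragolumab 37.1, 36.9 and 16.2 FPKM, pembrolizumab with HLX53 184, 46.1 and 18.3 FPKM, and pembrolizumab with tiragolumab 22.4, 17.3 and 68.5 FPKM. Serplulimab, HLX53 and pembrolizumab with HLX53 each held 1 tumour far above their others, and each overlapped the vehicle tumours. Ordered by their medians, from tiragolumab at 6.19 to serplulimab with HLX53 at 97.5 FPKM, each of the 8 pairs of neighbouring groups overlapped.

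**Figure D1:**
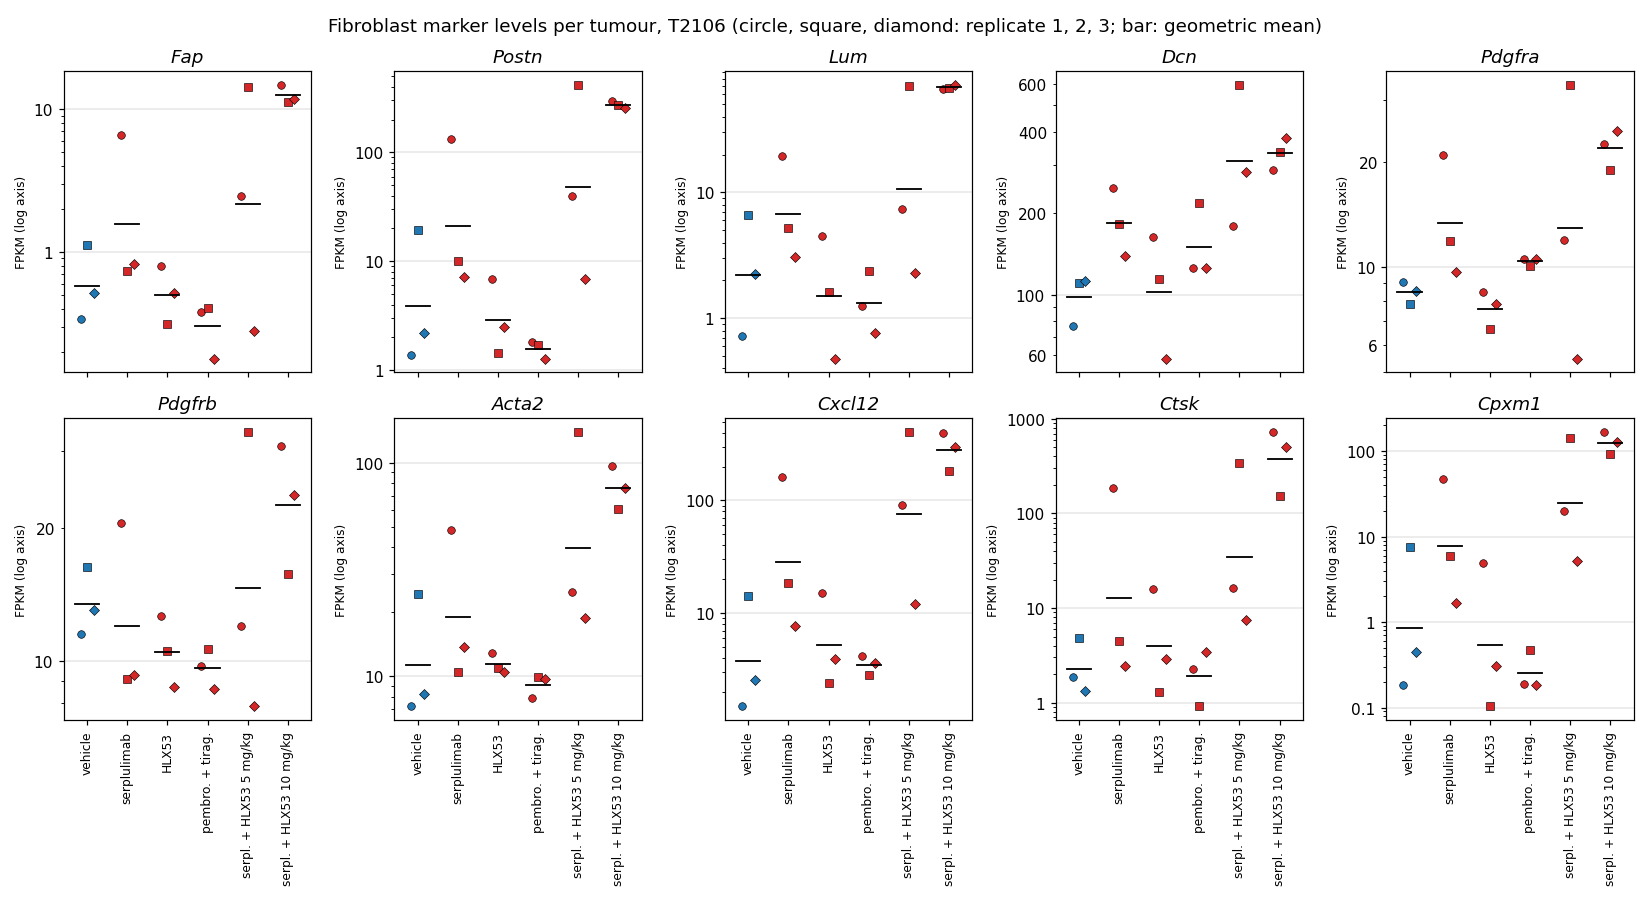
Level of each gene in the 18 T2106 tumours, in FPKM on a log axis, by treatment group, with vehicle in blue, replicates 1 to 3 as circle, square and diamond, and the geometric mean as a bar. The 3 tumours of serplulimab with HLX53 at 10 mg/kg sit together at 255 to 294 FPKM for Postn, while those of the 5 mg/kg pair spread from 6.84 to 419 FPKM.

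Lum, which encodes lumican, another proteoglycan of collagen fibrils, peaked at lower levels than Postn in both experiments. It stood at 0.730, 6.63 and 2.25 FPKM in T2106 vehicle tumours and at 66.1, 67.9 and 71.9 FPKM in those given serplulimab with HLX53 at 10 mg/kg. In T2215 the corresponding values were 11.97, 17.4 and 3.10 FPKM for vehicle and 27.4, 97.0 and 9.27 FPKM for the pair, so that the groups overlapped. Serplulimab alone gave 89.4, 3.65 and 49.9 FPKM in T2215 and had the highest group median, 49.9 FPKM.

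Dcn had a high level in every tumour. It stood at 76.8, 111 and 113 FPKM in T2106 vehicle tumours, 180, 596 and 284 FPKM with the 5 mg/kg pair, and 289, 335 and 380 FPKM with the 10 mg/kg pair. It was 249, 183 and 139 FPKM with serplulimab alone, 126, 218 and 125 FPKM with pembrolizumab and tiragolumab, and 163, 115 and 58.3 FPKM with HLX53 alone. All groups but HLX53 alone lay wholly above the vehicle tumours. In T2215 Dcn was 71.6, 183 and 108 FPKM with vehicle, 230.2, 400.0 and 211 FPKM with serplulimab and HLX53, and 408, 146 and 235 FPKM with serplulimab, and only the pair of serplulimab with HLX53 lay wholly above vehicle.

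Fap was 0.339, 1.11 and 0.519 FPKM in the vehicle tumours of T2106 and 1.85, 2.04 and 0.459 FPKM in those of T2215, where only serplulimab and serplulimab with HLX53 had a higher median. With serplulimab and HLX53 at 10 mg/kg it was 14.9, 11.3 and 11.8 FPKM in T2106 and 3.09, 13.3 and 1.39 FPKM in T2215. At the 5 mg/kg dose of HLX53 it was 2.48, 14.4 and 0.279 FPKM. In T2215 serplulimab alone gave 11.04, 0.357 and 4.61 FPKM, so that this group held both the lowest Fap value of the experiment and its second highest. Tiragolumab alone was the tightest group, at 0.646, 0.675 and 0.632 FPKM.

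The 2 receptors of platelet-derived growth factor were the steadiest members. Pdgfra was 9.08, 7.84 and 8.56 FPKM in T2106 vehicle tumours and 22.5, 19.0 and 24.6 FPKM with serplulimab and HLX53 at 10 mg/kg. Pdgfrb was 11.5, 16.4 and 13.0 FPKM and 30.8, 15.7 and 23.9 FPKM in the same groups, and it alone of the 10 overlapped between them. In T2215 vehicle and the serplulimab and HLX53 pair gave 10.0, 12.5 and 11.5 against 14.3, 26.98 and 12.8 FPKM for Pdgfra, and 15.5, 14.0 and 13.0 against 14.2, 25.2 and 12.1 FPKM for Pdgfrb. Group medians in T2215 ran from 10.2 to 14.9 FPKM for Pdgfra and from 10.96 to 15.6 FPKM for Pdgfrb, with overlap between all neighbours in the order.

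Acta2, the smooth muscle actin of contractile fibroblasts, was 7.21, 24.1 and 8.21 FPKM in T2106 vehicle tumours and 96.0, 60.8 and 75.8 FPKM with serplulimab and HLX53 at 10 mg/kg. In T2215 it was 24.5, 15.5 and 7.52 FPKM with vehicle and 39.2, 94.6 and 22.1 FPKM with the pair. The lowest T2215 value, 3.81 FPKM, and the third highest, 67.7 FPKM, both came from tumours given HLX53 alone.

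Cxcl12 was 1.49, 14.3 and 2.53 FPKM in T2106 vehicle tumours, 90.6, 405 and 12.1 FPKM with the 5 mg/kg pair and 399, 182 and 301 FPKM with the 10 mg/kg pair. In T2215 it was 44.6, 36.7 and 7.17 FPKM with vehicle and 137, 350 and 39.4 FPKM with serplulimab and HLX53. The other T2215 groups with a tumour above 100 FPKM were HLX53 alone, at 2.05, 171 and 11.9 FPKM, and pembrolizumab with HLX53, at 196, 13.8 and 16.1 FPKM. The 4 T2215 tumours above 100 FPKM thus all came from groups given HLX53, whose other 5 tumours lay at or below 39.4 FPKM.

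Ctsk encodes cathepsin K, a cysteine protease that degrades collagen. It was 1.86, 4.77 and 1.33 FPKM in T2106 vehicle tumours and 725, 152 and 499 FPKM with serplulimab and HLX53 at 10 mg/kg. It was 16.1, 340 and 7.49 FPKM with the 5 mg/kg pair, 185, 4.46 and 2.46 FPKM with serplulimab, 16.0, 1.30 and 2.90 FPKM with HLX53, and 2.28, 0.916 and 3.46 FPKM with pembrolizumab and tiragolumab. In T2106, 5 tumours therefore exceeded 100 FPKM and the other 13 lay at or below 16.1 FPKM.

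In T2215 Ctsk was 22.1, 16.9 and 5.63 FPKM with vehicle and 143, 433 and 29.1 FPKM with serplulimab and HLX53, all 3 above every vehicle tumour. Pembrolizumab with HLX53 gave 713, 10.8 and 13.9 FPKM, a single tumour apart from the other two. The remaining groups reached at most 41.4 FPKM, with tiragolumab alone lowest at 2.93, 5.86 and 2.40 FPKM. Cpxm1, of the carboxypeptidase X family, was 28.9, 31.4 and 4.57 FPKM with vehicle and 56.7, 185 and 21.3 FPKM with the pair in T2215. Its T2106 values were 0.182, 7.54 and 0.450 FPKM against 168, 92.4 and 130 FPKM at 10 mg/kg, and with HLX53 alone in T2215 it ran from 0.125 to 76.2 FPKM, the widest range within any group for these genes.

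**Figure D2:**
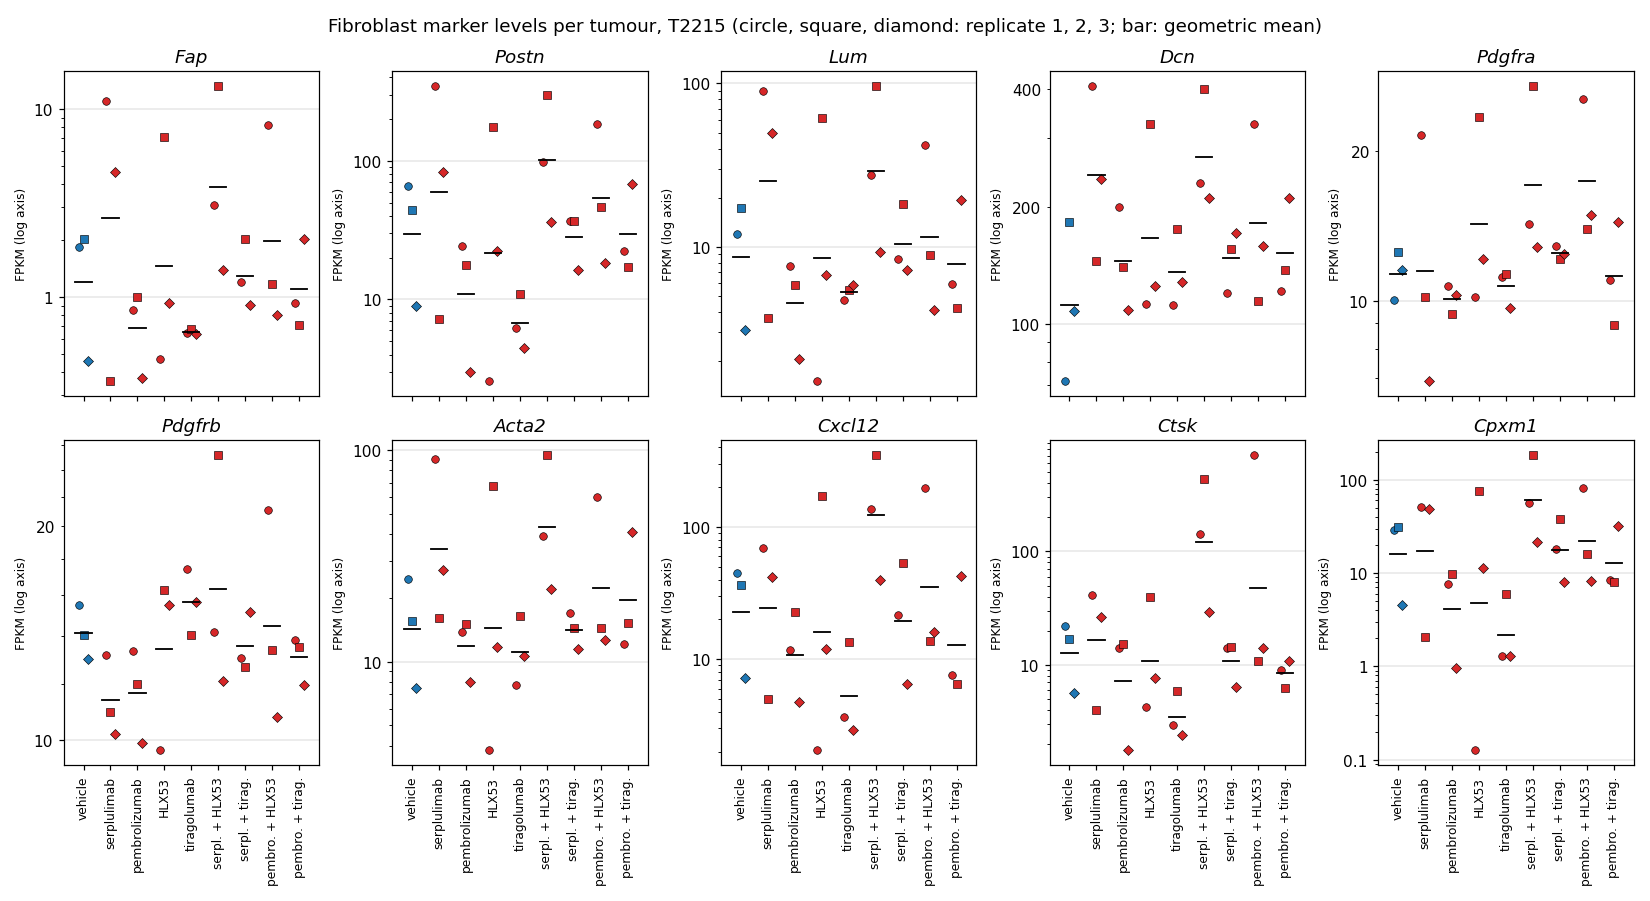
Level of each gene in the 27 T2215 tumours, in FPKM on a log axis, by treatment group, with vehicle in blue, replicates 1 to 3 as circle, square and diamond, and the geometric mean as a bar. Single high tumours stand out in several groups, such as 713 FPKM of Ctsk with pembrolizumab and HLX53, and Dcn, Pdgfra and Pdgfrb vary over a narrow range.

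Ordered by group medians, serplulimab with HLX53 at 10 mg/kg was highest for all 10 genes in T2106. The genes were chosen with values of this group in view, so its place in the order is not a separate result. Of the 5 pairs of neighbouring groups in that order, 1 was without overlap for each of Postn, Pdgfra and Acta2, and 0 for the other 7 genes. For Postn the gap lay between HLX53 alone and serplulimab alone. For Pdgfra it lay between vehicle and pembrolizumab with tiragolumab, and for Acta2 between the latter and HLX53 alone. The 10 mg/kg pair thus overlapped the group next below it for every gene. In T2215 serplulimab with HLX53 had the highest median for Postn, Acta2, Cxcl12, Ctsk and Cpxm1, serplulimab alone for Fap, Lum and Dcn, pembrolizumab with HLX53 for Pdgfra and tiragolumab for Pdgfrb. Tiragolumab had the lowest median for Fap, Postn, Lum, Acta2, Cxcl12, Ctsk and Cpxm1, 7 of 10, and all 8 pairs of neighbours overlapped for every gene. The members varied together from tumour to tumour, so that these 7 are not separate observations. Neither gaps between neighbours nor highest or lowest medians were counted over all genes.

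Set against vehicle in T2106, serplulimab with HLX53 at 10 mg/kg had higher levels of all 10 genes. Differences of group means on the log2(FPKM + 0.5) scale, with standard errors from limma over 18 tumours, were 7.07 ± 1.49 for Ctsk, 6.19 ± 1.28 for Cpxm1, 5.97 ± 1.201 for Cxcl12 and 5.87 ± 1.29 for Postn. They were 4.58 ± 0.996 for Lum, 3.56 ± 0.81 for Fap and 2.70 ± 0.67 for Acta2. Dcn differed by 1.75 ± 0.42, Pdgfra by 1.32 ± 0.43 and Pdgfrb by 0.72 ± 0.42. The median of the 10 was 4.07, and that of all 15070 genes was −0.04. In 9 of 10 every treated tumour was above every vehicle tumour, as in 31.6% of all genes, and the groups of this comparison were used to choose the 10. Of all genes 44% passed limma's adjusted p of 0.05, 23.4% higher and 20.6% lower, and nothing is read from these shares about the 10.

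Other cell type markers moved with the members in this comparison. The summed level of 11 adipocyte genes was 1782 to 2014 FPKM in the 3 treated tumours and 54.8 to 364 FPKM in vehicle tumours, and all 11 were higher on average. The sum of 9 skin keratinocyte genes was 10.6 to 11.6 against 1.32 to 1.99 FPKM, with Krt1, Lor and Dsg3 below 0.1 FPKM in every T2106 tumour. The sum of 8 macrophage genes was 2105 to 3745 against 753 to 1080 FPKM. That of 10 pericyte and vascular smooth muscle genes was 83.5 to 148 against 27.1 to 45.8 FPKM, and that of 9 skeletal muscle genes, 3.11 to 4.69 against 3.83 to 5.46 FPKM, did not separate the groups.

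Several further lists separated the same 2 groups. The sum of 25 fibroblast matrix genes was 10512 to 11037 FPKM in the treated tumours and 9507 to 9673 FPKM with vehicle. Of these genes 21 were higher on average, with a median log2 difference of 2.15, and Pcolce was lower, at −1.03. The sum of 14 contractile fibroblast genes was 627 to 786 against 534 to 615 FPKM, with 12 higher on average and Igfbp3 lower, at −1.09. The sum of 7 epithelium genes was 70.2 to 113 FPKM in the treated tumours and 9.80 to 17.9 FPKM with vehicle, that of 8 endothelium genes 195 to 277 against 61.2 to 113 FPKM, and that of 11 T cell genes 156 to 362 against 73.4 to 113 FPKM. The sum of 9 cell cycle genes was lower, at 419 to 773 against 963 to 1004 FPKM. Krt20 was 5.44 to 53.1 against 91.8 to 120 FPKM and Vim 1355 to 1851 against 2353 to 2759 FPKM, so that these 2 genes of the CT26 check were also lower in the treated tumours.

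With the mean adipocyte level of each tumour as a covariate the median difference of the 10 genes was 0.79. Ctsk then differed by 2.40, Cpxm1 by 1.59 and Postn by 0.73, while Pdgfra and Pdgfrb were lower by this estimate, at −0.25 and −0.78. The part of the other cell types in the result was not tested.

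The other 4 T2106 comparisons with vehicle were tested across all 15070 genes with limma, and 0 of 10 members passed an adjusted p of 0.05 in any. All 4 used the vehicle tumours whose values were in view when the 10 were chosen, so they are not independent of that choice. Of the 10, 6 had an unadjusted p below 0.05 with serplulimab and HLX53 at 5 mg/kg, 2 with serplulimab, and 0 with HLX53 or with pembrolizumab and tiragolumab. The background share of genes that passed the adjusted threshold was 1.02%, 0%, 0.00664% and 0% in that order. Of all 15070 genes, 4331, 1280, 582 and 774 had an unadjusted p below 0.05 by limma, in the same order. The 5 mg/kg pair had higher means for all 10 genes, which varied together, with a median difference of 1.90 and a range of 0.12 to 4.11. Dcn came nearest, at 1.66 ± 0.42 with an adjusted p of 0.0568, and was singled out after its values were seen.

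The 5 mg/kg group was uneven, and its result depended on single tumours. Its replicate 2 had 419 FPKM of Postn and a summed adipocyte level of 1987 FPKM, and its replicate 3 had 6.84 FPKM of Postn and 51.0 FPKM of adipocyte genes. Without replicate 3, 9 of 10 members passed limma's adjusted p of 0.05, in a fit in which 40.4% of all genes passed. Without replicate 1, 1 member passed among 5.95% of genes, and without replicate 2 or any vehicle tumour 0 passed. Over the alternatives the adjusted p of Dcn ran from 0.0198 to 0.514.

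Medians of the 10 differences were 1.19 for serplulimab, −0.13 for HLX53 and −0.37 for pembrolizumab with tiragolumab in T2106, all against the same 3 vehicle tumours. Every treated tumour was above every vehicle tumour for Dcn and Pdgfra with serplulimab, among 6.24% of all genes, and for the same 2 with pembrolizumab and tiragolumab, among 7.41%. It was so for Dcn and Ctsk with the 5 mg/kg pair, among 5.84%, and for no member with HLX53, among 5.33%. Pdgfrb lay wholly below vehicle with pembrolizumab and tiragolumab, as did 16.4% of genes.

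T2215 held the same treatment in other mice, and there the 10 genes also had higher means with serplulimab and HLX53 than with vehicle, but none passed the test. The members varied together from tumour to tumour, so their shared direction is not 10 separate observations. The share of all genes with a higher mean was not counted. The differences were 3.20 ± 1.27 for Ctsk, 2.41 ± 1.37 for Cxcl12, 1.87 ± 1.44 for Cpxm1, 1.75 ± 1.34 for Postn and 1.68 ± 1.17 for Lum. They were 1.58 ± 0.82 for Acta2, 1.35 ± 0.88 for Fap, 1.26 ± 0.45 for Dcn, 0.57 ± 0.34 for Pdgfra and 0.20 ± 0.24 for Pdgfrb. The smallest adjusted p by limma was 0.239, for Dcn. Unadjusted, Dcn and Ctsk had p of 0.0114 and 0.0205 by limma, and 0% of 14914 genes passed the adjusted threshold, with 2729 below an unadjusted 0.05.

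The 95% intervals for this treatment ran from 0.31 to 2.20 for Dcn, from 0.54 to 5.85 for Ctsk and from −1.04 to 4.55 for Postn. Of the 10 genes only Dcn and Ctsk had intervals that did not hold 0, before any adjustment over genes. The median difference of the 10 was 1.63, against −0.04 for all genes. Every treated tumour was above every vehicle tumour for Dcn, Pdgfra and Ctsk, 3 of 10, as for 8.11% of all genes. Single tumours moved 8 of the 10 differences by more than 1.5 times, all but those of Dcn and Ctsk. Without replicate 2 of the pair, which had the highest level of 7 of the 10 genes in the experiment, the difference was 0.54 for Fap, 0.83 for Lum, 0.98 for Postn, 1.07 for Cpxm1, 1.02 for Acta2, 0.25 for Pdgfra and −0.10 for Pdgfrb. Without replicate 3 of vehicle it was 0.91 for Postn, 0.90 for Fap, 1.002 for Cpxm1, 1.0001 for Lum and 1.60 for Cxcl12, and without replicate 3 of the pair it was 0.41 for Pdgfrb. With the adipocyte covariate it was 0.30 for Postn, 0.38 for Cpxm1, 0.42 for Fap, 0.45 for Lum, 0.71 for Acta2 and 0.97 for Cxcl12, 0.32 for Pdgfra and 0.045 for Pdgfrb, and 0.92 for Dcn and 2.03 for Ctsk.

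The summed adipocyte level in the 3 treated tumours was 116 to 3946 FPKM, with 105 to 645 FPKM in vehicle tumours. That of epithelium genes was 11.2 to 103 against 7.57 to 25.2 FPKM, and that of cell cycle genes 433 to 817 against 842 to 1096 FPKM. The part of these cells in the differences was not tested.

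**Figure D3:**
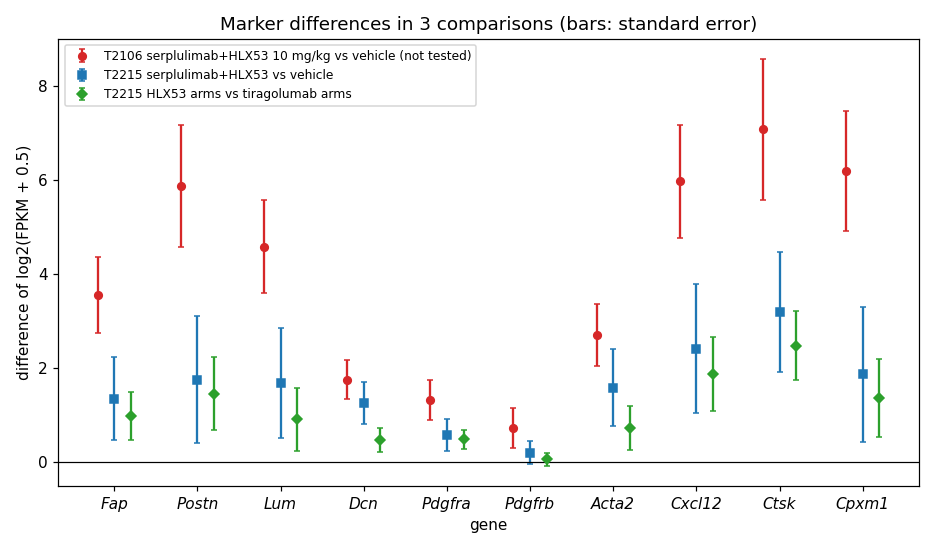
Difference of group means on the log2(FPKM + 0.5) scale, with standard errors as bars, for each gene in 3 comparisons. The T2106 differences, given without a test, run from 0.72 for Pdgfrb to 7.07 for Ctsk, those of the same treatment in T2215 from 0.20 to 3.20, and those of HLX53 arms against tiragolumab arms from 0.06 to 2.47.

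The other T2215 groups were set against the same vehicle tumours. Medians of the 10 differences were 0.68 for serplulimab, −0.66 for pembrolizumab, −0.01 for HLX53 and −0.66 for tiragolumab. They were 0.01 for serplulimab with tiragolumab, 0.61 for pembrolizumab with HLX53 and −0.12 for pembrolizumab with tiragolumab. By limma 0 of 10 members passed in each, with 1 unadjusted p below 0.05, for Dcn with serplulimab. With serplulimab 1842 of all 14914 genes had an unadjusted p below 0.05 by limma. The background share was 0% for the first 5, 0.00671% for pembrolizumab with HLX53 and 0.0134% for pembrolizumab with tiragolumab. Pdgfra lay wholly above vehicle with pembrolizumab and HLX53, as did 3.4% of genes.

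Replicate 1 of T2215 serplulimab held 18942 FPKM summed over the 9 skeletal muscle genes, and every vehicle tumour at most 5.55 FPKM. The same tumour had the highest Postn, 349 FPKM, and the highest Dcn, 408 FPKM, of the experiment, with 3000 FPKM summed over adipocyte genes. With the tumours that had 20 FPKM or more of Acta1, a skeletal muscle actin, left out together, 0 members passed in the 10 comparisons that held one.

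The antibodies were also compared as classes over the 27 T2215 tumours. HLX53 arms against tiragolumab arms, each averaged over no antibody to PD-1, serplulimab and pembrolizumab, gave a higher mean for all 10 genes with HLX53. Here too the 10 are not separate observations. The differences were 2.47 ± 0.73 for Ctsk, 1.87 ± 0.79 for Cxcl12, 1.45 ± 0.78 for Postn, 1.36 ± 0.83 for Cpxm1 and 0.99 ± 0.51 for Fap. They were 0.91 ± 0.68 for Lum, 0.72 ± 0.47 for Acta2, 0.48 ± 0.19 for Pdgfra, 0.47 ± 0.26 for Dcn and 0.06 ± 0.14 for Pdgfrb. None passed by limma, with the smallest adjusted p 0.155 for Ctsk, where 0% of genes passed and 3964 had an unadjusted p below 0.05.

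In this comparison 3 of 10 members had an unadjusted p below 0.05, namely Ctsk, Pdgfra and Cxcl12. The 95% interval was 0.94 to 4.003 for Ctsk and −0.22 to 0.35 for Pdgfrb. With the adipocyte covariate the differences were smaller, at 0.14 for Lum, 0.19 for Acta2, 0.26 for Dcn, 0.33 for Pdgfra, 0.41 for Fap, 0.44 for Cpxm1, 0.55 for Postn, 0.98 for Cxcl12, 1.75 for Ctsk and −0.032 for Pdgfrb. Without replicate 2 of HLX53 alone, Acta2 differed by 0.36, Lum by 0.46, Cpxm1 by 0.82, Postn by 0.96 and Dcn by 0.31, and Pdgfrb ranged from −0.038 (without replicate 2 of serplulimab with HLX53) to 0.14 with single tumours left out. Of the 9 tumours given HLX53, 3 had Ctsk of 143, 433 and 713 FPKM, and the other 6 lay between 4.22 and 39.6 FPKM. The 9 tumours given tiragolumab lay between 2.40 and 14.2 FPKM.

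Other lists in the HLX53 and tiragolumab arms had no gene past the threshold by limma. The median difference was 0.72 for 25 fibroblast matrix genes, 21 of them positive, and 0.63 for 14 contractile genes, 12 of them positive. It was 1.42 for 7 osteoclast genes, 1.22 for 11 T cell genes and 0.93 for 11 adipocyte genes, all of them positive, and −0.03 for all genes. The part of these cells in the levels of the 10 genes was not tested.

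Further class comparisons gave 0 of 10 members past the threshold by limma. The median difference was 0.69 for any antibody to PD-1 against none, 0.17 for any antibody to TIGIT against none, and 0.88 for serplulimab arms against pembrolizumab arms. It was 0.46 for the interaction of the classes and 1.61 for serplulimab with HLX53 against pembrolizumab with tiragolumab. Genes passing in all numbered 0% for the first, the third and the interaction and 0.0134% for the second and the last. Of the members, 2 had an unadjusted p below 0.05 in the last comparison, Ctsk and Cxcl12, and 0 in the other 4. Of all 14914 genes 3180 had an unadjusted p below 0.05 by limma in that last comparison.

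The 10 genes varied together from tumour to tumour within treatment groups. After subtraction of group means from log2(FPKM + 0.5), Pearson's r for the 45 pairs of members ran from 0.50 to 0.97 over 18 T2106 tumours, with a median of 0.87, and from 0.53 to 0.97 over 27 T2215 tumours, with a median of 0.80. The closest pair in T2215 was Fap and Lum, and in T2106 Cxcl12 and Cpxm1. Dcn, Pdgfra and Pdgfrb were the least like the others in T2215, with median r of 0.75, 0.68 and 0.66 to the other 9. These values share the libraries and are given as a description.

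**Figure D4:**
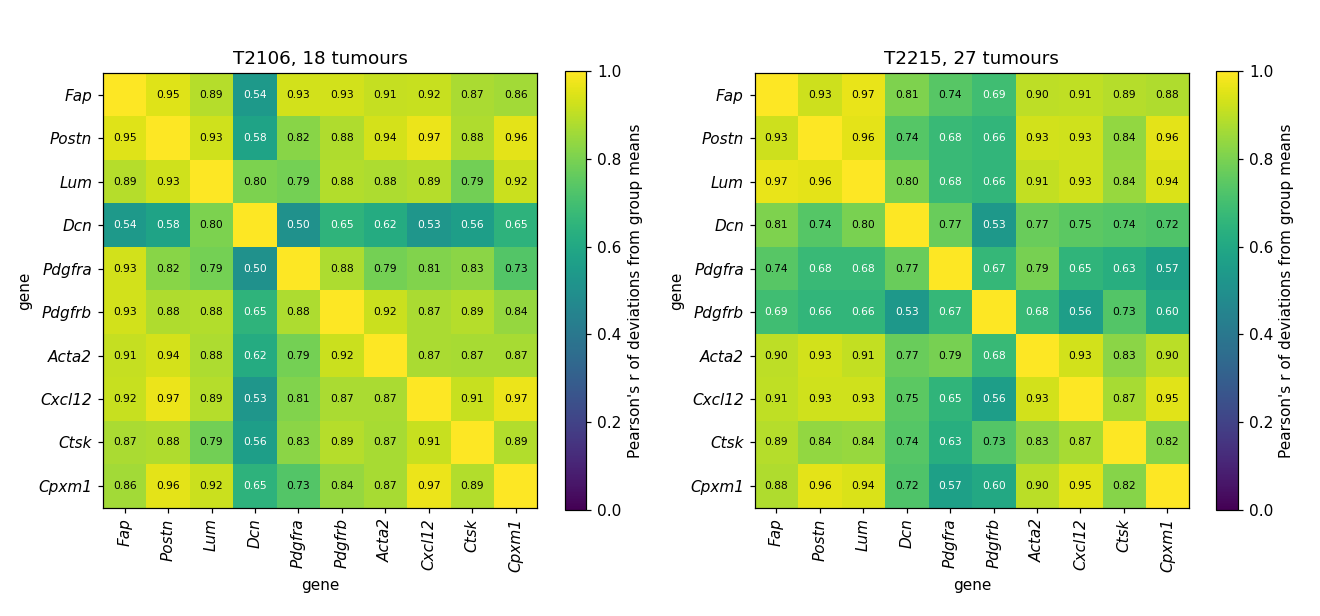
Pearson's r between each pair of genes after group means were subtracted from log2(FPKM + 0.5), over 18 T2106 tumours (left) and 27 T2215 tumours (right), with yellow for 1 and dark blue for 0. The lowest value is 0.50 in T2106 and 0.53 in T2215, in the row of Dcn in both, and Pdgfra and Pdgfrb also have lower values in T2215.

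Among 13139 genes ranked in T2215, the genes whose deviations most resembled the mean of the 10 members were Serf1 with r of 0.99, Mmp2 with 0.99 and Mfap2 with 0.99, followed by Gpx7, Bgn, Gpr153, Fbln1, Adamts2, Mmp23 and Plpp3, the last with 0.98. Mmp2 is a gelatinase, Bgn a proteoglycan, Mfap2 and Fbln1 components of elastic fibres, and Adamts2 a procollagen protease. Over the 18 T2106 tumours the r of Serf1 was 0.90 and that of Mmp2 0.99.

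Single members had different nearest genes, which were ranked in T2215 only and looked up after the values were seen. Acta2 was closest to Tagln, a smooth muscle actin-binding protein, with r of 0.98 in T2215. In T2106 Tagln also had 0.98, but Myl9 had 0.99. Ctsk was closest to Acp5, tartrate-resistant acid phosphatase, with 0.97 in T2215 and 0.96 in T2106. Pdgfrb was closest to Tal1, a transcription factor of blood and endothelial cells, with 0.93 in T2215 and 0.91 in T2106, where Clec1a had 0.97. Sox18, a transcription factor of endothelium, was among its 5 closest, with 0.92 and 0.87. Dcn was closest to Csf3, a granulocyte growth factor, with 0.89 in T2215 but 0.61 in T2106. Postn was closest to Mmp2 and Fap to Ndn, both with 0.99.

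Tumours with high Ctsk were high in Acp5 as well. In T2215 the 3 tumours above 100 FPKM of Ctsk had 98.0, 331 and 519 FPKM of Acp5 and 1.46, 1.31 and 1.37 FPKM of Ctsk per FPKM of Acp5. Their Postn was 97.5, 298 and 184 FPKM. By contrast replicate 1 of serplulimab had the highest Postn, 349 FPKM, with 41.4 FPKM of Ctsk and 24.3 FPKM of Acp5. Ctsk per FPKM of Postn ranged from 0.119 in that tumour to 3.86 in replicate 1 of pembrolizumab with HLX53, and Ctsk per FPKM of Acp5 ranged from 0.379 to 2.53.

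Among the other 24 T2215 tumours, r was 0.90 for Ctsk and Acp5 (Spearman's rho 0.89) and 0.91 for Ctsk and Postn (0.88). Among the 13 T2106 tumours below 100 FPKM these were 0.84 (0.75) and 0.75 (0.68). These relations were chosen after the values were seen and carry no test.

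**Figure D5:**
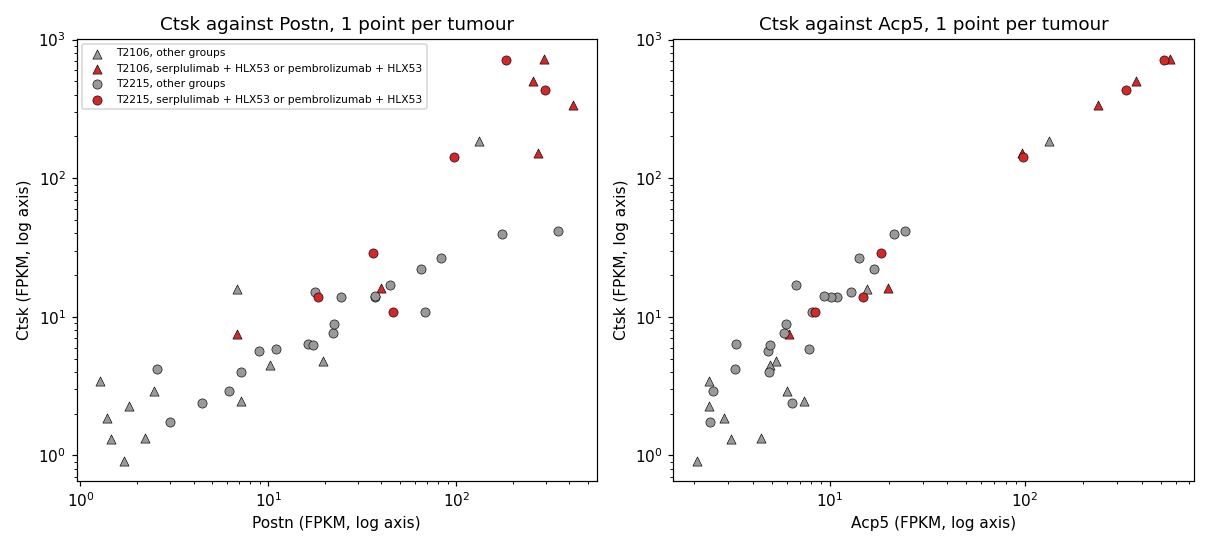
Ctsk against Postn (left) and against Acp5 (right), each point a tumour, both axes in FPKM on a log scale, triangles for T2106, circles for T2215, and red for tumours given an antibody to PD-1 with HLX53. In the left panel the tumour at 349 FPKM of Postn has 41.4 FPKM of Ctsk, below tumours with less Postn, while in the right panel the 3 T2215 tumours above 100 FPKM of Ctsk have 98.0 to 519 FPKM of Acp5.

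Acp5 and Ctsk are both genes of osteoclasts, and Acp5 is also transcribed by macrophages. Over 8 osteoclast genes the summed level was 172 to 986 FPKM with serplulimab and HLX53 at 10 mg/kg in T2106, against 16.4 to 22.1 FPKM with vehicle. In T2215 it was 48.6 to 668 FPKM with the pair, 24.3 to 1006 FPKM with pembrolizumab and HLX53, and 19.9 to 38.3 FPKM with vehicle. Acp5 is 1 of the 8 and gave 558, 97.3 and 372 FPKM of the T2106 sums of 986, 172 and 665 FPKM. It gave 519 of the 1006 FPKM with pembrolizumab and HLX53, so that Acp5 made up much of the highest sums but not all. Of the list 7 genes entered the fit. All 7 were higher on average than vehicle with serplulimab and HLX53 at 10 mg/kg in both experiments. The median log2 difference was 3.22 in T2106, given as a description, and 2.12 in T2215, where 0 of 7 passed by limma. Calcr, the calcitonin receptor that marks mature osteoclasts, did not exceed 0.101 FPKM in T2106 or 0.138 FPKM in T2215. Ocstamp, a gene of osteoclast fusion, reached 9.57 and 12.8 FPKM. The part of such cells in the level of Ctsk was not tested.

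Genes of the pathways around the members were counted by list. In the T2215 comparison of serplulimab and HLX53 with vehicle, 0 of 25 fibroblast matrix genes, 0 of 14 contractile, 0 of 18 inflammatory and 0 of 7 antigen-presenting fibroblast genes passed limma's threshold in either direction. The median differences were 1.11, 1.05, 0.50 and 1.13, against −0.04 for all 14914 genes. The 6 ligands of the growth factor receptors and receptors of CXCL12 (Pdgfa, Pdgfb, Pdgfc, Pdgfd, Cxcr4 and Ackr3) had a median of 0.90, with 5 of 6 positive and 0 passing. No list gene passed in any of the 14 T2215 comparisons.

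With serplulimab and HLX53 at 5 mg/kg in T2106, 1 of 25 matrix genes passed, Pdpn (podoplanin), which rose by 1.58 ± 0.27 with an adjusted p of 0.0201 by limma. Of the inflammatory list Ccl7, a monocyte chemokine, passed at 1.38 ± 0.30 (adjusted p 0.0491), and of the antigen-presenting list Saa3, an acute phase gene, at 5.37 ± 1.13 (adjusted p 0.0465). Over all genes 1.02% passed in this comparison and 0.352% were higher. These 3 calls depended on single tumours: adjusted p by limma ran from 0.00824 to 0.0906 for Pdpn, from 0.0105 to 0.149 for Ccl7 and from 0.00811 to 0.126 for Saa3 with 1 tumour left out. Pdpn did not pass without replicate 2 of the pair or without replicate 2 or 3 of vehicle, and Ccl7 and Saa3 did not pass without replicate 2 of the pair or without any 1 of the vehicle tumours. None of 14 contractile, 10 pericyte, 6 ligand and receptor or 7 osteoclast genes tested did. The lists were written with earlier results of these data known.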

How the data were processed

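RNA of 45 tumours was sequenced as paired reads of 150 nucleotides, per the labels' protocols. The authors deposited log2 FPKM values, a table per experiment, per the file headers. For the program behind them, none is given in the sources used here. FastQC, Bowtie, STAR and Trimmomatic and the builds mm10, hg19 and GRCh37 are listed, with no role for any, per the submitters' processing notes. Read depth is unknown, so no counting interval is given. Groups came from the sample titles.

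FPKM was recovered from the log2 values, and log2(FPKM + 0.5) was analysed, which understates differences at low levels. A gene entered the test with at least 0.5 FPKM in 3 libraries, which kept 15070 (T2106) and 14914 (T2215). For each table, a single limma model (version 3.58.1, R 4.3.3, eBayes with trend) held every group, and p-values were adjusted by Benjamini-Hochberg over the genes tested, with a threshold of 0.05. The fit was tested on simulated data. The p-values judge a difference of group means against the spread between tumours within groups, estimated over all groups of an experiment. The 10 genes, the 15 gene lists and the comparisons were chosen with earlier results of these data known. Levels were reported for all 10, differences for all 10 in 3 comparisons and for any past the threshold elsewhere, with up to 3 passing genes per list and the 10 genes most like the members' mean in T2215. Promoters to print, motifs, nearest genes of single members, the relations of Ctsk with Acp5 and Postn, its limit of 100 FPKM, and Dcn in the 5 mg/kg comparison were picked after values were seen. Alternatives were pseudocounts of 0.1 and 1, no filter, libraries centred on their medians, a replicate block, an adipocyte covariate, only the compared groups, single tumours left out, and, chosen after seeing the data, tumours with 20 FPKM or more of Acta1 left out.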

Additional observations from a re-analysis of the deposited data

How the results depend on the processing

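The count of members past the threshold stayed at 0 in the 18 tested comparisons under pseudocounts of 0.1 and 1, no filter, centred libraries and the adipocyte covariate, and in the 13 refitted with only the compared groups. Leaving out single tumours gave 0 in 17 of them and 0 to 9 in serplulimab with HLX53 at 5 mg/kg in T2106 (1 without replicate 1 of the pair, 9 without its replicate 3). The median difference for serplulimab with HLX53 at 10 mg/kg was 4.07, 3.69 to 4.53 under pseudocounts of 1 and 0.1, 3.66 to 4.53 with single tumours left out and 0.79 with the adipocyte covariate, under which Pdgfra was −0.25 and Pdgfrb −0.78. In T2215 Pdgfrb reversed in HLX53 arms against tiragolumab arms with the covariate (−0.032) and with single tumours left out (−0.038 to 0.14), and for serplulimab with HLX53 against vehicle with single tumours left out (−0.10 to 0.41). In T2215 the adipocyte covariate lowered the difference of all 10 members in serplulimab with HLX53 against vehicle and in HLX53 arms against tiragolumab arms. The 3 list genes that passed at 5 mg/kg had an adjusted p of 0.514 with only the compared groups, and 0.0604 (Pdpn), 0.116 (Ccl7) and 0.110 (Saa3) with no filter, and Ccl7 0.0926 with the adipocyte covariate. The cause was not tested. With a replicate block 0 members passed in each of the 18 comparisons. Under it Ccl7 and Saa3 no longer passed in the 5 mg/kg comparison (adjusted p 0.0733 and 0.0681 by limma) and Pdpn did (0.0411), and 39 genes passed there in place of 154. Tumours of the same replicate number did not deviate together (mean r −0.06 to 0.05, pairs −0.74 to 0.72), so the numbers were not taken as pairs. The unfiltered fit and the fit of only the compared groups were not run for the median at 10 mg/kg. With 3 tumours per group and unknown depth, differences of the sizes seen in T2215 could not be separated from the spread between tumours.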
